A study of Mus musculus with 3 samples.

Results

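Gene expression in the hippocampus of restraint-stressed mice injected with extracellular vesicles (EVs) from sedentary donors (RS) was compared with that of non-restrained vehicle-injected mice (NV). The comparison covered the 11828 genes, of 19504 with a gene symbol, whose log2 signal was above 6 in RS or in NV, the level below which a signal was taken as dim, and the other 7676 genes were left aside. RNA was pooled from 4 male mice in RS and from 3 male mice in NV, and 1 Affymetrix whole-transcript array was run per pool. Another pool of 4 mice, restraint-stressed and injected with EVs from donors kept with a running wheel (RE), is given beside the values as a further array. All mice were of the C57BL/6J strain and 11 weeks of age in the labels.

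RS mice were held in restraint for 6 h per day over 3 weeks and received 20 μg of EVs into the left lateral ventricle, and tissue was taken 3 days after the injection. RE mice had the same restraint and the same amount of EVs. NV mice were neither restrained nor given EVs in the methods, although the title of that pool in the labels speaks of vesicles. RS and NV therefore differed in restraint and in the injected material, whose parts in a difference cannot be told apart. The labels give ventral hippocampus for every pool, whereas the methods give hippocampus with no subdivision. Because each side was 1 array of a pool, no difference has a replicate check, no error can be attached to it and no p-value is given.

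The hippocampus receives its cortical input through the granule cells of the dentate gyrus, which pass it on to the pyramidal cells of CA3 and CA1, while interneurons that release GABA restrain both. It is rich in receptors for corticosteroids, the adrenal hormones released during restraint, and is one of the brain regions most studied in chronic stress. EVs are membrane particles that cells release into body fluids and that carry protein and RNA. A tissue pool also holds glia, vessels, meninges and any neighboring tissue taken at dissection. In such a pool, fewer cells of a type and less RNA per cell cannot be told apart.

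Genes are called higher or lower here where the log2 signals of RS and NV differed by 1 or more, a 2-fold difference and the threshold of the study's methods. Of the 11828 genes, 1067 passed it in either direction, or 9.02%. In RS, 582 genes were higher, or 4.92%, and 485 were lower, or 4.1%. The median difference was 0.07, 55.8% of the differences were positive, and its SD over genes, which are not replicates, was 0.60. A 4-fold difference was reached by 42 genes that were higher and 58 that were lower, and an 8-fold difference by 2 and 11 genes. Without the limit on dim signals, 1522 of 19504 genes passed, or 7.8%. At the threshold lay Cd2ap, Mrps18a and Fgb, and just short of it Ecm2 and Pde8b.

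The share of genes past 2-fold depended on brightness. With a mean log2 signal of at most 6, 31.5% of 565 genes passed, 54 higher and 124 lower, and above 14 it was 4.34% of 645 genes, 21 higher and 7 lower. Genes above 6 in NV but not in RS numbered 629, of which 200 were lower, and genes above 6 in RS but not in NV numbered 434, of which 113 were higher. These had to differ in that direction, and the size of their differences is less certain. The median of all genes was 6.62 in RS, 6.55 in RE and 6.64 in NV. On the X chromosome 32 of 443 genes were lower, or 7.22%, and 14 were higher, or 3.16%, and on chromosome 13 the share was 2.86% lower and 7.16% higher of 489 genes.

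**Figure D1:**
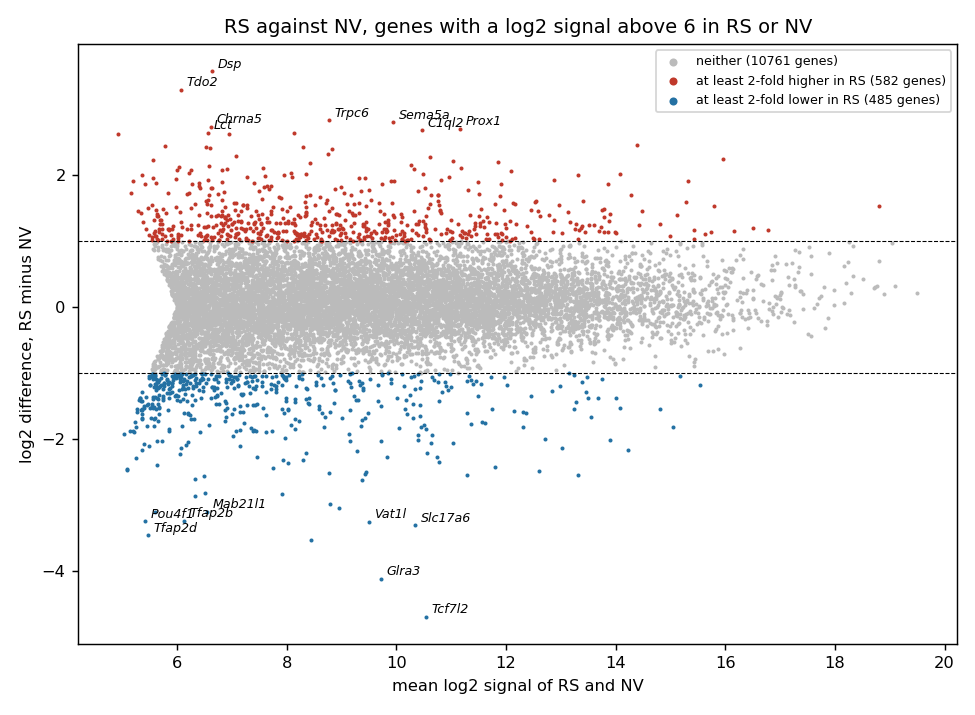
Log2 difference of RS minus NV (vertical axis) against the mean log2 signal of both arrays (horizontal axis) for the 11828 genes above 6 in RS or NV, with dashed lines at 2-fold. Red points are the 582 genes that were higher in RS and blue points the 485 that were lower, and the largest differences lie on the lower side, with Tcf7l2 at -4.68.

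Among genes above 6, most of those of dentate granule cells were higher in RS and most of the few of the dorsal midbrain were lower. Genes of the thalamus and habenula were lower more often than higher. Of 20 dentate granule cell genes above 6, 14 were higher and 0 lower, with a median difference of 1.61. Of these 20, 4 were above 6 in RS alone and could only be higher, and without them the median was 1.19. The median was 1.09 over 12 genes of pyramidal and granule neurons in general, 6 of which were higher and none lower. By contrast, 8 of 10 genes of the dorsal midbrain and brainstem were lower and none higher, and their median was -1.66. These 10 were the only genes above 6 of 30 measured. Of the 10, 6 were above 6 in NV alone and could only be lower, and without them the median was -1.17. Of 17 genes of the thalamus and habenula, 7 were lower and 3 higher, and the median was -0.83. That median was -0.47 when RS and RE were averaged.

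Dsp, which encodes desmoplakin of cell junctions, showed the largest rise, with a log2 signal of 8.42 in RS, 7.62 in RE and 4.85 in NV. It lies at chr13:38151294-38198577 of the mouse build GRCm38.p6, and its difference of 3.57 was 11.9-fold. Tdo2, tryptophan dioxygenase of the kynurenine pathway, had 7.71 in RS, 6.64 in RE and 4.42 in NV. Both genes were dim in NV. The cation channel gene Trpc6 was well above 6 in every pool, at 10.19 in RS, 9.24 in RE and 7.36 in NV. Prox1, the homeobox factor that maintains granule cell identity, had 12.52 in RS, 12.19 in RE and 9.82 in NV. C1ql2, a secreted C1q-like protein of mossy fiber synapses, had 11.80 in RS, 11.51 in RE and 9.13 in NV. Neurod6, a bHLH factor of excitatory forebrain neurons, was at 15.61 in RS, 15.28 in RE and 13.16 in NV. Among the remaining rises of the 15 largest were the nicotinic receptor subunit gene Chrna5 with a difference of 2.73, the lactase gene Lct with 2.64, Akr1c18, a steroid-metabolizing reductase with close paralogs, with 2.63, and Rasd1, a Ras-like gene induced by dexamethasone, with 2.62. Depdc7 differed by 2.62, Gmnc, a regulator of multiciliated cells, by 2.44 and Spink8 by 2.43.

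The largest fall was that of Tcf7l2, the Wnt-pathway transcription factor of thalamic neurons, with 8.21 in RS, 8.54 in RE and 12.89 in NV. Its difference of -4.68 was 25.7-fold, and the gene lies at chr19:55741797-55933659. Slc17a6, the vesicular glutamate transporter of most subcortical excitatory neurons, had 8.70 in RS, 8.95 in RE and 12.00 in NV. Vat1l had 7.87 in RS, 7.84 in RE and 11.12 in NV. These genes remained above 6 in every pool. Several factors of the midbrain and habenula were above 6 in NV alone: Tfap2d had 3.74 in RS, 3.56 in RE and 7.19 in NV, Pou4f1 had 3.80 in RS, 4.47 in RE and 7.04 in NV, and Tfap2b had 4.52 in RS, 4.93 in RE and 7.75 in NV. Mab21l1 differed by -3.10, Arhgap6 by -2.83, the forkhead factor gene Foxp2 by -2.82, Rgs6, a regulator of G protein signaling, by -2.62 and Coch by -2.61.

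**Figure D2:**
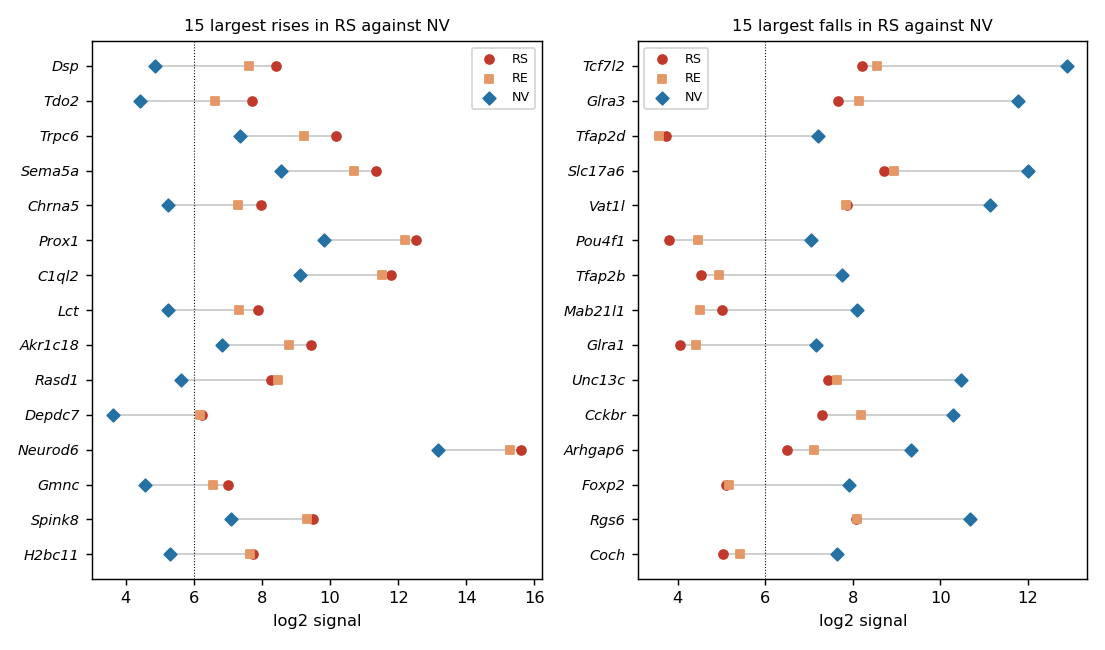
Log2 signal (horizontal axis) of the 15 genes with the largest rises (left) and the 15 with the largest falls (right), with 1 circle for RS, 1 square for RE and 1 diamond for NV per gene and a dotted line at 6. Dsp is at 8.42 in RS and 4.85 in NV, and Tcf7l2 at 8.21 in RS and 12.89 in NV.

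The summed linear signal of the 17 thalamus and habenula genes was 10406 in RS, 10885 in RE and 26183 in NV, and that of the 10 dorsal midbrain genes 3483 in RS, 3806 in RE and 10705 in NV. For the 20 dentate granule cell genes the sum was 100170 in RS, 76736 in RE and 44972 in NV. For the 11 CA1 genes, by contrast, it was 59811 in RS, 68162 in RE and 74820 in NV, although their median difference was positive at 0.87. Such a sum is carried by the genes with the highest signals. Some defining genes of the subcortical regions were dim in every pool: Gbx2 of the thalamus had 4.22 in RS, 4.15 in RE and 4.11 in NV, and Barhl1 of the midbrain 4.27 in RS, 3.85 in RE and 4.35 in NV. In the thalamic list 3 genes were higher in RS, with a difference of 1.98 for the protein kinase C gene Prkcd, 1.91 for Ptpn3 and 1.69 for Plekhg1. Regional markers thus moved with the groups, and their part in the differences described below was not tested.

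Within the pyramidal layers the picture was mixed. Of 11 CA1 genes 4 were higher, among them Spink8 and Pou3f1, a POU factor, with 1.93, and 1 was lower, the matrix proteoglycan gene Dcn with -1.13. Of 16 CA2 and CA3 genes 2 were higher, Iyd with 1.62 and Rgs14, a signaling regulator of CA2 neurons, with 1.06, and 4 were lower, Coch, Necab2 with -1.49, the AMPA receptor auxiliary gene Cacng5 with -1.19 and the tyrosine phosphatase gene Ptpn5 with -1.16. Of the markers of the labelled tissue, Slc17a7, the vesicular glutamate transporter of cortical and hippocampal neurons, was at 15.95 in RS, 15.57 in RE and 15.99 in NV. Emx1, a factor of the dorsal forebrain, was dim at 5.68 in RS, 5.73 in RE and 5.77 in NV.

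Markers of oligodendrocytes leaned upward. The share past 2-fold was 24.1% for oligodendrocytes, 13.6% for astrocytes and 5.88% each for microglia and endothelial cells, against 9.02% over all genes above 6. Of 29 oligodendrocyte genes, 6 were higher and 1 lower, the median was 0.66 and 27 differences were positive. Mobp, of compact myelin, had 14.48 in RS, 14.19 in RE and 13.11 in NV, and Mbp, myelin basic protein, had 17.36 in RS, 17.04 in RE and 16.20 in NV. Mag, an adhesion protein of the inner myelin layer, differed by 1.15, Opalin by 1.06, Cldn11, the tight junction claudin of myelin, by 1.02 and Fa2h, which makes hydroxylated myelin lipids, by 1.01. Enpp6, a gene of newly formed oligodendrocytes, was lower at 7.03 in RS, 7.07 in RE and 8.07 in NV. Of 10 genes of oligodendrocyte precursors, 1 was lower, Lhfpl3 with -1.68, and 0 higher.

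Of 22 astrocyte genes, 1 was higher and 2 were lower. Gfap, the intermediate filament of astrocytes, had 13.02 in RS, 12.71 in RE and 11.99 in NV. The GABA transporter gene Slc6a11 had 11.96 in RS, 12.15 in RE and 14.09 in NV, and Agt, angiotensinogen, had 9.61 in RS, 10.31 in RE and 11.67 in NV, both genes being more abundant in astrocytes of subcortical regions. The glutamate transporter gene Slc1a2, a general astrocyte marker, differed by 0.13 and the water channel gene Aqp4 by -0.26. Of 17 microglia genes 1 was higher, Aif1, with 7.34 in RS, 6.88 in RE and 5.73 in NV, while P2ry12 differed by 0.90, Csf1r by 0.81, Cx3cr1 by 0.16 and Tmem119 by -0.12. Of 17 endothelial genes 1 was higher, the tight junction gene Ocln with 1.54.

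Of 11 genes of fibroblasts and meninges above 6, 3 of them in 1 array only, 4 were lower and 1 was higher, and the list's median was -0.75. That is 45.5% past 2-fold, against 9.02% over all genes above 6. Col1a2 and Mgp were above 6 in NV alone and could only be lower, and Bgn was above 6 in RS alone and could only be higher. Ptgds, a prostaglandin synthase of the meninges and choroid plexus, had 12.72 in RS, 13.64 in RE and 14.39 in NV, and the collagen gene Col1a2 had 5.81 in RS, 5.58 in RE and 6.89 in NV. Bgn, a small proteoglycan, differed by 1.40. Of 8 genes of the choroid plexus and ependyma, 2 were higher and 2 lower. Each of these was above 6 in only 1 of RS and NV, which set its direction. Ttr, the transthyretin of the plexus, had 7.85 in RS, 8.20 in RE and 5.78 in NV, and Kl, which encodes klotho and is also present in hippocampal neurons, had 7.65 in RS, 7.58 in RE and 5.52 in NV. Otx2, which the dorsal midbrain list also holds, and the potassium channel gene Kcnj13 were lower, with -2.40 and -1.42, and Folr1 differed by 0.06.

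Among transcription factors, homeobox and TFAP2 genes held more falls than rises. Of families described below, 4.17% of basic helix-loop-helix genes and 21.4% of nuclear receptors passed 2-fold, against 9.02% over all genes above 6. Of 32 TALE and other homeobox genes above 6, 7 were lower and 2 higher (median -0.40). Pbx3 had 5.22 in RS, 6.05 in RE and 7.78 in NV, and Meis2, its partner among TALE factors, had 11.56 in RS, 11.70 in RE and 13.17 in NV. Meis1 differed by -1.56, Cux1 by -1.50 and Barhl2 by -1.38, and Pknox1, the other gene beside Prox1 that was higher, by 1.55. A further list of 16 homeobox genes, with LIM and POU factors among them, had 2 lower and 1 higher (median -0.11). The lower genes, Pou4f1 and Irx2, and the higher one, Pou3f1, were each above 6 in only 1 of RS and NV, which set their direction. Among 16 ZIC, GLI, EBF, TFAP2 and NFI factors, a list to which Tcf7l2 was added, 5 were lower and 1 higher, at a median difference of -0.81. Besides Tcf7l2, Tfap2b and Tfap2d, these were Ebf1 with -1.69 and Ebf3 with -1.63, and the higher gene was Glis3 with 1.04. With the list kept to genes above 6 in both arrays, its median turned to 0.13.

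Of 28 nuclear receptors 4 were higher and 2 lower, and the list's median was -0.02. Nr2f2, also called COUP-TFII and expressed in interneurons and ventral hippocampal neurons, had 10.60 in RS, 11.75 in RE and 13.01 in NV. Rxrg, a retinoid X receptor, had 5.48 in RS, 6.34 in RE and 7.37 in NV, and Rara, a retinoic acid receptor, differed by 1.10. Of 24 basic helix-loop-helix genes Neurod6 was the only one past 2-fold, and of 24 AP-1, ATF and CREB genes Junb was. Klf3 with 1.38 and Sp140 with 1.49 were higher among 17 Krüppel-like and SP factors.

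Immediate early genes, which neurons switch on within minutes of activity, were higher in part. Of 22 above 6, 6 were higher and 0 lower, the median was 0.50 and 17 differences were positive. Nr4a1, an orphan nuclear receptor, had 9.66 in RS, 9.10 in RE and 8.26 in NV, and Egr3, a zinc finger factor, had 9.54 in RS, 9.37 in RE and 8.27 in NV. Averaging the probe sets of Egr3 gave a difference of 0.50 in place of 1.27, which ends its call. Junb, a subunit of AP-1, differed by 1.24, Btg2, an antiproliferative gene, by 1.19, Arc, which controls AMPA receptor removal, by 1.13 and Nr4a2 by 1.04. The lowest value was that of the kinase gene Sik1, with -0.76. Bdnf, the activity-dependent neurotrophin, had 12.36 in RS, 11.91 in RE and 10.65 in NV, and of 12 genes of neurotrophins and their receptors it was the only one that was higher, while Sorcs1, a sortilin-type receptor, was lower with -1.14. CREB activates many such genes through the cAMP response element. The full element, TGACGTCA, which reads the same on both strands, was found in 2 of the 18 promoters at hand for the 22 genes and in 1.85% of all 27025 RefSeq promoter windows, which span 250 bases before to 50 after a start site. The window of Btg2 is shown, from chr1:134079106-134079405 on the minus strand of GRCm38.p6, because it holds 1 such element, in capitals. The windows of Nr4a1, Junb and Nr4a2, the other higher genes with a window at hand, held 0.
Btg2: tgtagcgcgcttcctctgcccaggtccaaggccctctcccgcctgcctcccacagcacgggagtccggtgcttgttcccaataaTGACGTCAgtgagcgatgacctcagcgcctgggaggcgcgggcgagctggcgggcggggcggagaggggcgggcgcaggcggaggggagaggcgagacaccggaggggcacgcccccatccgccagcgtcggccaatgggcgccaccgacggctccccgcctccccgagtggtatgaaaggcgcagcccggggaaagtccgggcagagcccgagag

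Targets of the glucocorticoid receptor were higher in part and none was lower. Of 24 above 6, 5 were higher, the median was 0.34 and 20 differences were positive. That is 20.8% higher, against 4.92% over all genes above 6, and the other 19 genes of the list stayed within 2-fold. Bcl6, a transcriptional repressor, had 10.02 in RS, 9.19 in RE and 7.62 in NV. Nr3c2, which the list included, is itself a receptor, the mineralocorticoid receptor, which binds corticosteroids with high affinity in the hippocampus. Nr3c2 had 13.83 in RS, 13.69 in RE and 11.91 in NV. Cebpd, a C/EBP factor, had 8.72 in RS, 8.01 in RE and 7.06 in NV. Hsd11b1, the enzyme that regenerates active glucocorticoid, differed by 1.29 and Zbtb16, a zinc finger factor, by 1.06. The lowest of the list was the connexin gene Gjb6 with -0.42. Bcl6, Nr3c2 and Hsd11b1 are also expressed in hippocampal neurons, and the part of the granule cell genes, 14 of 20 of which were higher, was not tested.

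Histone genes leaned upward. Of 55 above 6, 7 were higher and 0 lower, the median was 0.39 and 49 differences were positive. H2bc11 had 7.73 in RS, 7.64 in RE and 5.31 in NV, and H2ac10 had 9.51 in RS, 9.23 in RE and 8.05 in NV. H2bc7 differed by 1.29, H2ac22 by 1.18, H2bc8 by 1.08, H3c13 by 1.01 and H2bc15 by 1.01. Histone genes stand in clusters of near-identical copies, so the signal of 1 gene may hold that of others and the genes are not independent of each other. Most copies are expressed when DNA is replicated, and their promoters carry CCAAT boxes. The letters CCAAT, read on either strand and so also as ATTGG, were found in 43 of the 51 histone promoters at hand, or 84.3%, in 10275 of all 27025 promoter windows, and in 7 of 7 of the genes that were higher. TATAAA was found in 26 of the 51 and in 14.2% of all windows. The windows of H2bc11 at chr13:22042948-22043247 on the plus strand, with 5 matches, and of H2bc7 at chr13:23574158-23574457 on the minus strand, with 4, are shown as the windows of 2 of the 3 genes with the largest rises, with CCAAT and ATTGG in capitals. The window of H2ac10, the other of these 3, held 2 matches.
H2bc11: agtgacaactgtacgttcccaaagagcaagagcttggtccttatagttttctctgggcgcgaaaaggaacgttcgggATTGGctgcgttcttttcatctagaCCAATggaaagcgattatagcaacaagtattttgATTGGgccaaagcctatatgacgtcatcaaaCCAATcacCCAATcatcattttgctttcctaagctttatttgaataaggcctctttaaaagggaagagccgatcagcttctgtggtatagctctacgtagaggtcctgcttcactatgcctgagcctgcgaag
H2bc7: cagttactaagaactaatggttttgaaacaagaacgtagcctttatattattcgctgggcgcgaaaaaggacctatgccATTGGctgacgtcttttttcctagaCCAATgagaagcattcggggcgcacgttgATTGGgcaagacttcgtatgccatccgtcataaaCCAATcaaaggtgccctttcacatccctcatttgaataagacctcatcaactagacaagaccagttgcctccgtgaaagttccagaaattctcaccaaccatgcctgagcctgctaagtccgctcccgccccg

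**Figure D3:**
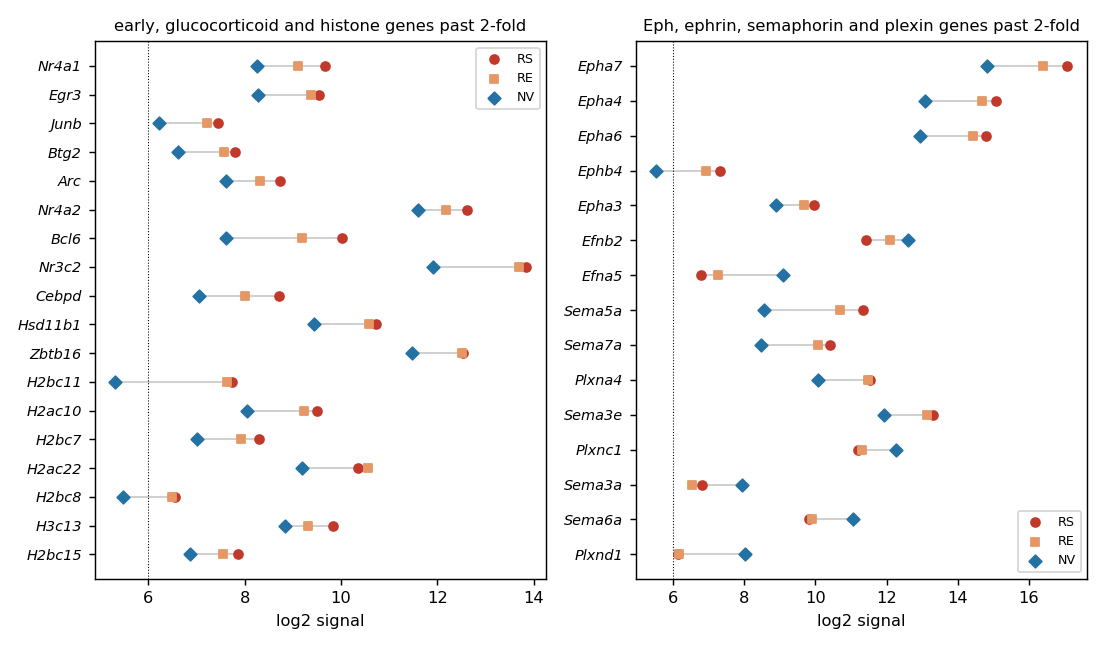
Log2 signal (horizontal axis) of the immediate early, glucocorticoid receptor target and histone genes past 2-fold (left) and of the Eph, ephrin, semaphorin and plexin genes past 2-fold (right), with 1 circle for RS, 1 square for RE and 1 diamond for NV per gene and a dotted line at 6. Every gene on the left is higher in RS than in NV, as with Bcl6 at 10.02 in RS and 7.62 in NV, and the right panel holds genes of both directions.

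Genes of GABA neurons were lower in RS where they passed 2-fold. Of 24 genes of GABA synthesis, GABA transport and interneurons, 6 were lower and 0 higher (median -0.48). Gad2, an enzyme that makes GABA, had 11.37 in RS, 11.53 in RE and 12.93 in NV, and Slc32a1, which loads GABA into vesicles, had 10.08 in RS, 10.54 in RE and 11.49 in NV. Calb2, calretinin, had 9.42 in RS, 10.48 in RE and 11.36 in NV. Tac1 differed by -2.34, the serotonin receptor gene Htr3a by -1.05 and Reln, the secreted protein reelin, by -1.04. Calb2 and Tac1 also stood in the list of thalamus and habenula genes.

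GABA-A receptor subunits changed in both directions. Gabra4, the alpha subunit of extrasynaptic receptors on granule cells, had 12.95 in RS, 12.87 in RE and 11.39 in NV, and Gabra5, the alpha subunit typical of the hippocampus, had 17.11 in RS, 16.71 in RE and 15.91 in NV. Gabra3 was lower, with 11.40 in RS, 11.54 in RE and 13.23 in NV. Gabrq had 4.28 in RS, 4.67 in RE and 6.43 in NV, and Gabrg1 differed by -1.24. In all, 2 of 11 subunits were higher and 3 lower, at a median difference of -0.17. Of the glycine receptors, the inhibitory receptors of the brainstem and spinal cord, 2 genes were lower: Glra3 had 7.66 in RS, 8.14 in RE and 11.77 in NV, and Glra1 had 4.05 in RS, 4.42 in RE and 7.15 in NV, whereas the beta subunit gene Glrb differed by -0.35.

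Among 14 subunits of ionotropic glutamate receptors 1 was higher and 3 were lower, and the list's median was 0.28. Grin2a, an NMDA receptor subunit of mature synapses, had 15.21 in RS, 14.80 in RE and 13.75 in NV. Grin3a, another NMDA receptor subunit, had 8.53 in RS, 9.23 in RE and 10.23 in NV, the AMPA receptor subunit Gria4 differed by -1.16 and the kainate receptor subunit Grik3 by -1.07. Auxiliary subunits of AMPA receptors were past 2-fold in 3 of 14 genes. Shisa6, which keeps AMPA receptors at the synapse, had 12.95 in RS, 12.54 in RE and 10.76 in NV, Cacng8 of the TARP family had 12.20 in RS, 12.16 in RE and 10.82 in NV, and Cacng5 was the lower one. Of 5 metabotropic glutamate receptors Grm2, a presynaptic autoreceptor, was higher with 1.41.

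Cholinergic and monoamine receptors were also divided. Chrna5 had 7.98 in RS, 7.31 in RE and 5.25 in NV, and the muscarinic receptors Chrm3 and Chrm1, both coupled to Gq, differed by 1.68 and 1.18. Chrna3, a nicotinic subunit abundant in the habenula, had 5.01 in RS, 5.18 in RE and 6.34 in NV, and Chrna9 differed by -1.07. Of 9 serotonin receptors, Htr1a, the autoreceptor that also inhibits hippocampal neurons, was higher with 10.08 in RS, 10.14 in RE and 9.03 in NV. Htr2c, abundant in the choroid plexus and in ventral hippocampal neurons, was lower with 9.62 in RS, 10.53 in RE and 11.88 in NV. Among dopamine receptors Drd5 differed by 1.43, Drd1 by -1.45 and Drd3 by -1.21.

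**Figure D4:**
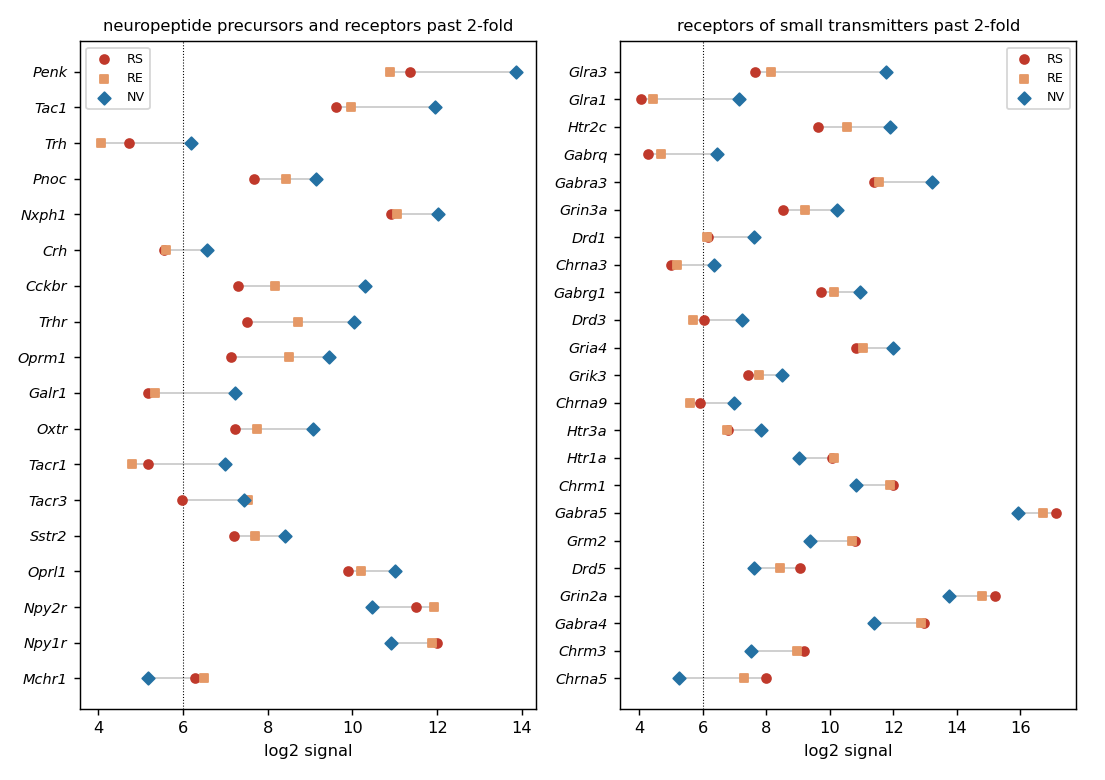
Log2 signal (horizontal axis) of neuropeptide precursor and receptor genes past 2-fold (left) and of receptor genes of small transmitters past 2-fold (right), with 1 circle for RS, 1 square for RE and 1 diamond for NV per gene and a dotted line at 6. The 6 genes of the precursor list, from Penk to Crh, are lower in RS than in NV, with Penk at 11.36 in RS and 13.85 in NV. Trh and Crh are above 6 in NV alone.

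Genes of the neuropeptide precursor list that passed 2-fold were lower. Of 27 above 6, 7 of them in 1 array only, 6 were lower and 0 higher (median -0.34). Penk, the precursor of enkephalins, had 11.36 in RS, 10.88 in RE and 13.85 in NV, and Tac1, the precursor of substance P, had 9.62 in RS, 9.96 in RE and 11.96 in NV. Trh had 4.72 in RS, 4.06 in RE and 6.20 in NV. The nociceptin precursor gene Pnoc differed by -1.46 and Nxph1, a neurexin ligand that the list included, by -1.12. Crh, the corticotropin-releasing hormone of the stress axis, had 5.56 in RS, 5.61 in RE and 6.56 in NV. Trh and Crh were above 6 in NV alone and could only be lower. The highest value of the list was that of Nts, neurotensin, with 0.88.

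Of 35 neuropeptide receptors above 6, 11 of them in 1 array only, 9 were lower and 3 higher, at a median difference of -0.38. That is 34.3% past 2-fold, against 9.02% over all genes above 6. Galr1, Tacr1 and Tacr3 were above 6 in NV but not in RS and could only be lower. Mchr1 was above 6 in RS but not in NV and could only be higher. Cckbr, the brain cholecystokinin receptor, had 7.30 in RS, 8.18 in RE and 10.28 in NV, Trhr had 7.51 in RS, 8.72 in RE and 10.03 in NV, and Oprm1, the mu opioid receptor, had 7.14 in RS, 8.49 in RE and 9.45 in NV. These were lower in RS than in NV by 4-fold or more. Galr1, for galanin, differed by -2.04, Oxtr, for oxytocin, by -1.85 and Tacr1, for substance P, by -1.80. Tacr3, for neurokinin B, was lower in RS with 5.99, while RE had 7.54 and NV 7.45. The somatostatin receptor gene Sstr2 differed by -1.20 and the nociceptin receptor gene Oprl1 by -1.12. Receptors of neuropeptide Y were higher, Npy1r with 12.00 in RS, 11.87 in RE and 10.90 in NV and Npy2r with 11.49 in RS, 11.92 in RE and 10.47 in NV, as was Mchr1 with 1.11.

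Potassium channels were divided. Of 32 voltage-gated subunits 5 were higher and 4 lower, and the list's median was -0.04. Kcnab1 and Kcnab2, the beta subunits of Kv1 channels, had 14.20 and 16.08 in RS, 13.83 and 15.77 in RE and 12.59 and 14.49 in NV. Kcns3, a silent subunit, differed by 1.52, Kcna4 by 1.14 and Kcnd2, the A-type channel of dendrites, by 1.04, whereas Kcnf1 differed by -1.60, Kcnh2 by -1.20, Kcnc4 by -1.08 and Kcnh5 by -1.01. Of the G protein-activated channels, Kcnj6 had 11.75 in RS, 11.41 in RE and 9.47 in NV, Kcnj3 differed by 1.24 and Kcnj9 by 1.03. In that list of 27 inward rectifier, two-pore and calcium-activated channels, 3 were higher and 5 lower, among them Kcnj16, a channel of astrocytes, with -1.83 and the two-pore channel gene Kcnk9 with -1.19.

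Other channels past 2-fold went in both directions. The share was 37.5% of 8 sodium channel genes, 16% of 25 chloride channels and carriers and 13.6% of 22 other cation channel genes. Over all genes above 6 it was 9.02%. Scn3b, a beta subunit of sodium channels, had 15.12 in RS, 14.50 in RE and 13.43 in NV, and Scn8a, of the axon initial segment, differed by 1.21, while Scn7a was lower with -1.20. Of 14 calcium channel genes Cacna1a, the P/Q-type channel of nerve endings, was higher with 1.05. Ano3, an anoctamin, differed by 1.54, whereas Ano10 differed by -1.08, Clcn5 by -1.87 and Clcn1, above 6 in NV alone, by -1.11. The acid-sensing channel gene Asic1 had 6.80 in RS, 7.26 in RE and 8.67 in NV.

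Signaling behind Gq-coupled receptors was changed in both directions. Of 24 genes of phospholipase C, diacylglycerol kinases and calcium release channels 5 were higher and 4 lower. Plcb4, the phospholipase C beta of thalamic and cerebellar neurons, had 8.17 in RS, 8.70 in RE and 10.70 in NV, and the diacylglycerol kinase gene Dgkk differed by -2.14. Dgkh, of the same family, had 11.42 in RS, 11.09 in RE and 9.62 in NV, and Ryr2, a calcium release channel, had 11.56 in RS, 11.21 in RE and 9.96 in NV. Camk2d, the delta subunit of the calcium/calmodulin kinase, had 12.04 in RS, 12.58 in RE and 14.58 in NV, while Camk2a, the alpha subunit, differed by 0.70. Adcy1, the calcium-stimulated adenylyl cyclase, had 12.29 in RS, 12.16 in RE and 10.81 in NV. Prkg2, the cGMP-dependent kinase, had 4.12 in RS, 4.58 in RE and 6.40 in NV, and Pde1c, a phosphodiesterase, differed by -1.61. Plcb4, Prkg2, Crhr1 and Ppp1r17 were listed by the study under long-term depression on the basis of these arrays, and their direction is therefore no independent evidence. Crhr1, the receptor for corticotropin-releasing hormone, did not pass 2-fold with 7.02 in RS, 6.33 in RE and 7.99 in NV, and Ppp1r17 was below 6 in every pool.

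Of 69 genes of synaptic vesicles and release, 3 were higher and 5 lower (median 0.03). That is 11.6% past 2-fold, against 9.02% over all genes above 6. Unc13c, a release priming factor, had 7.44 in RS, 7.63 in RE and 10.48 in NV. The synaptotagmin gene Syt9 differed by -1.90 and Vamp1, a vesicle SNARE of brainstem and fast-firing neurons, by -1.28, while Syt14 differed by 1.57 and Stxbp6 by 1.45. Postsynaptic scaffold genes leaned upward, with 23 of 27 differences positive, a median of 0.52, 2 higher and 0 lower. Kalrn, a gene of dendritic spines, had 14.32 in RS, 13.81 in RE and 12.32 in NV, and the other was Arc.

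Trans-synaptic organizers were past 2-fold more often on the lower side. Of 72, 11 were lower and 5 higher, at a median difference of -0.15. The cerebellins, secreted bridges between neurexins and delta receptors, were lower: Cbln2 had 7.86 in RS, 7.80 in RE and 9.53 in NV, Cbln1 had 5.92 in RS, 6.20 in RE and 7.30 in NV, and Cbln4 had 8.26 in RS, 8.71 in RE and 9.51 in NV. Of the related C1q-like genes, C1ql2 and C1ql3 were higher, with 2.68 and 1.24. Slitrk6 differed by -1.76, the contactin gene Cntn6 by -1.68 and Lrrtm3 by -1.34, whereas Clstn2, a calsyntenin, differed by 1.21.

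Eph receptors and ephrins changed in both directions. Of 19 Eph receptors and ephrins 5 were higher and 2 lower, and the list's median was 0.03, and the 5 were receptors while the 2 were ligands. Epha7 had 17.07 in RS, 16.39 in RE and 14.84 in NV, Epha4 had 15.09 in RS, 14.70 in RE and 13.07 in NV, and Epha6 had 14.80 in RS, 14.43 in RE and 12.94 in NV. The ligand Efna5 had 6.77 in RS, 7.27 in RE and 9.09 in NV. Efnb2 differed by -1.18, Ephb4 by 1.80 and Epha3 by 1.06.

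Of 26 semaphorins, plexins and neuropilins 4 were higher and 4 lower. Sema5a, which limits synapse formation on granule cells, had 11.34 in RS, 10.70 in RE and 8.55 in NV, Sema7a had 10.41 in RS, 10.08 in RE and 8.45 in NV, and Plxnd1, the receptor of Sema3e, had 6.13 in RS, 6.17 in RE and 8.01 in NV. Sema3e itself differed by 1.38, Plxna4 by 1.47, Sema6a by -1.22 and Sema3a by -1.12. The netrin receptor gene Unc5d had 8.70 in RS, 8.89 in RE and 10.98 in NV and Robo1, a slit receptor, differed by 1.19.

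More cadherins were lower than higher. Of 24 classical and atypical cadherins 6 were lower and 2 higher, with Cdh13, a cadherin without a transmembrane part, at 9.62 in RS, 10.04 in RE and 11.47 in NV. Of 10 protocadherins outside the clusters 4 were lower, among them Pcdh11x with 6.83 in RS, 7.73 in RE and 9.20 in NV, and 1 was higher, Pcdh20 with 1.51. Of 18 clustered protocadherins, whose sequences are much alike, 1 was higher, Pcdhb17 with 1.43, and 0 were lower.

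In the extracellular matrix, 3 of 17 collagens were lower and 0 higher, Col4a1 of basement membranes with -1.24, Col6a2 with -1.10 and Col1a2 with -1.08. All 3 were above 6 in NV alone, with 5.47, 5.57 and 5.81 in RS, and could only be lower. Sparc, a matrix glycoprotein of astrocytes and vessels, had 14.14 in RS, 14.52 in RE and 15.95 in NV. Metalloproteinases and their inhibitors had 7 higher and 4 lower of 31. Adamts1 had 7.52 in RS, 6.72 in RE and 5.72 in NV, Mmp16 and Mmp17, which are bound to the membrane, differed by 1.46 and 1.45, and the inhibitor Timp2 had 13.14 in RS, 13.95 in RE and 15.31 in NV.

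Growth factor genes were divided. Of 29 FGF, WNT, BMP and TGF beta ligands above 6, 8 of them in 1 array only, 6 were higher and 4 lower. That is 34.5% past 2-fold, against 9.02% over all genes above 6. Inhba, Bmp1 and Gdf10 were above 6 in RS alone and could only be higher. Wnt9b and Bmp5 were above 6 in NV alone and could only be lower. Fgf13, an intracellular FGF that binds sodium channels, had 12.23 in RS, 11.73 in RE and 10.13 in NV, and Inhba, the activity-regulated activin subunit, had 7.73 in RS, 6.84 in RE and 5.99 in NV. Bmp1, a procollagen protease, differed by 1.83, Tgfb2 by 1.12, Wnt9b by -1.41 and Bmp3 by -1.24. Of the receptors and secreted inhibitors, the BMP antagonist Grem1 had 6.15 in RS, 6.25 in RE and 4.24 in NV and the antagonist Chrdl1 had 5.70 in RS, 6.13 in RE and 7.48 in NV. Each was above 6 in only 1 of RS and NV, which set its direction. No gene of the insulin-like growth factor system passed 2-fold among 13.

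Of 15 genes linked with adult neurogenesis 4 were lower and 1 higher, the astrocyte and stem cell gene Gfap. Dcx, the doublecortin of newborn neurons, had 8.95 in RS, 9.32 in RE and 10.38 in NV. Stmn1, a microtubule regulator, had 14.03 in RS, 14.16 in RE and 15.57 in NV, Fabp7, a fatty acid binding protein of radial glia, differed by -1.08, and Calb2 was the other. Bcl2, the survival gene, was lower with 9.59 in RS, 10.04 in RE and 10.92 in NV, the only one of 15 BCL2 family and death genes past 2-fold. Per3 was the only one of 22 clock genes, with 1.10.

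Genes of energy metabolism and protein turnover held to within 2-fold nearly throughout. Most genes did, since 9.02% of all genes above 6 passed. The mean log2 signals of these lists in RS and NV lay between 10 and 14. With a mean signal of 10 to 12 the share of all such genes past 2-fold was 6.42%, and with 12 to 14 it was 5.42%. In respiratory complex I 0 of 44 genes passed, with a median of 0.07 and a span from -0.61 for Ndufaf5 to 0.85 for Ndufaf3, both assembly factors. Complexes II, III and IV also had 0 of 30, with a median of -0.10, ATP synthase 0 of 17 with 0.09, glycolysis 0 of 23 with 0.11 and the citric acid cycle 0 of 19 with 0.06. Proteasome subunits had 0 of 38, with a median of 0.10, and initiation and elongation factors 0 of 58, with 0.14. Cytosolic ribosomal proteins had 2 of 62 higher, Rpl27 with 1.21 and Rpl29 with 1.03, in a family with many processed pseudogenes.

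Most genes of the heat shock, unfolded protein, MHC, complement and interferon lists also stayed within 2-fold. So did most genes above 6 at large, of which 9.02% passed, against 3.23% of the heat shock and 6.25% of the interferon list. Lists as short as those of MHC and complement cannot tell 0 from that share. Of 62 heat shock and DNAJ genes 1 was higher, Dnajb14 with 1.24, and 1 lower, Hspbap1 with -1.14. The unfolded protein response had 0 of 23 past 2-fold with a median of 0.27, MHC and antigen processing 0 of 9 with -0.17 and complement 0 of 11 with -0.04. Oasl2, at 5.68 in RS, 6.11 in RE and 6.91 in NV, was the only one of 16 interferon response genes. Gpx3, a secreted glutathione peroxidase, differed by -1.87, the only one of 23 oxidative stress genes. DNA methylation and chromatin genes had 0 of 25.

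**Figure D5:**
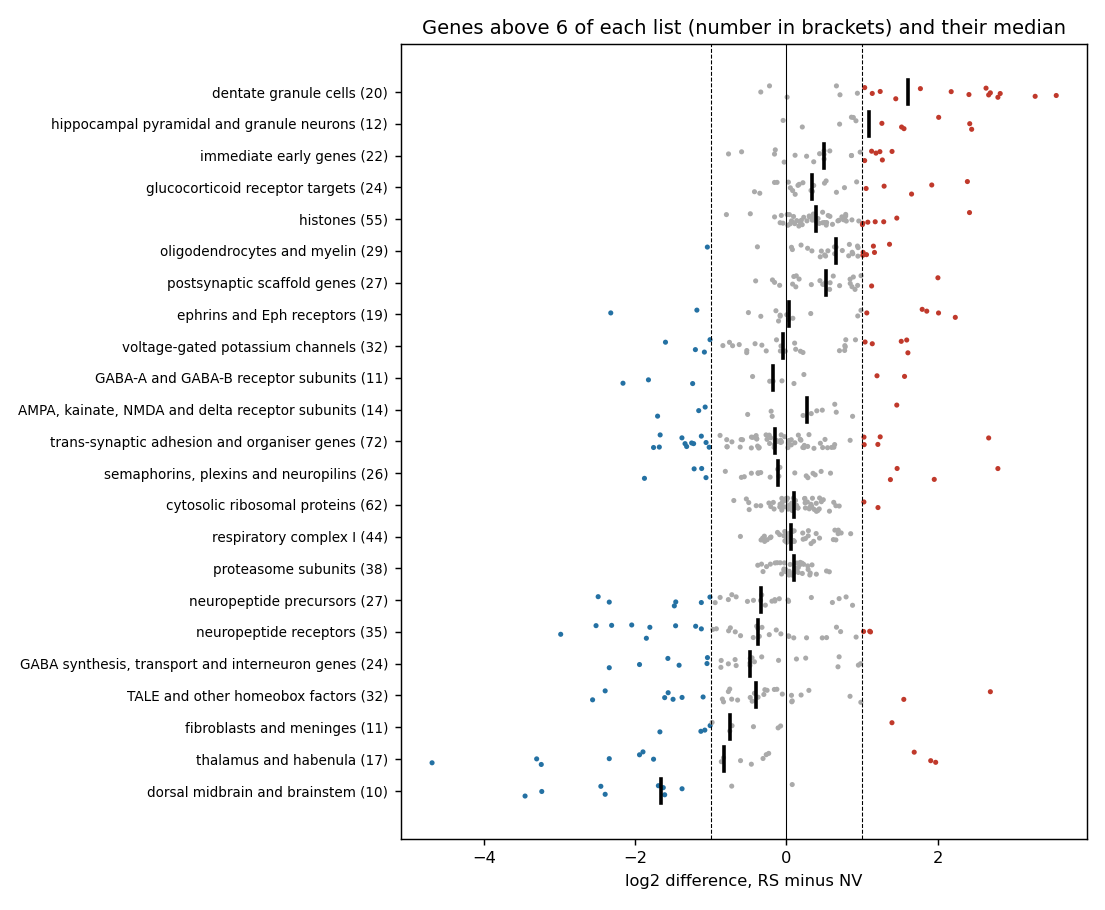
Log2 difference of RS minus NV (horizontal axis) for the genes above 6 of 23 gene lists (rows, number of genes in brackets), with 1 point per gene, a black bar at the median, dashed lines at 2-fold, and red and blue for genes higher and lower in RS. Medians run from 1.61 for dentate granule cells to -1.66 for the dorsal midbrain and brainstem, and the points of respiratory complex I and the proteasome all lie within the dashed lines.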

How the data were processed

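The series held 3 arrays, 1 per pool. The authors deposited log2 signals of 22205 probe sets. Command Console is given for the signals in the methods. Affymetrix Power Tools and RMA stand in the submitters' processing notes, their versions not given in the sources used here. Values run to 19.93, above 16 for 154 genes in RS and 128 in NV, and the step behind this is not given. Signals of different genes are not compared, since probes differ.

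The platform annotation gave 1 symbol for 19571 probe sets and none here for 2634. Each gene was represented by its probe set with the highest mean over the 3 arrays, which left 19504 genes (55 had several). The log2 difference RS minus NV was taken as deposited, with a threshold of 2-fold and a log2 signal above 6 in RS or NV. With 1 array per group there is no test, and the number of arrays limits the precision. Named genes were the 15 largest rises and falls, without chemosensory receptors, antigen receptor segments, small RNAs and clone-named or predicted genes, up to 6 members per list and direction past 2-fold, the extreme members where none passed, cell type markers, and the study's long-term depression genes. The 101 gene lists come from textbook knowledge. Members and lists were chosen with earlier results of these data known, and 2 lists were corrected after a first look, when genes caught by name alone were removed. A gene may stand in several lists. Alternatives were other filters, centring, removal of the lowess trend on signal (span 0.3), quantile normalization, the mean of probe sets, a threshold of 1.5-fold, and the RE array, or its mean with RS, taken for RS. Promoter windows are RefSeq's, build GRCm38.p6, 1 per gene. Matplotlib 3.10.9, statsmodels 0.14.6, pandas 2.3.3 and numpy 2.4.6 ran under Python 3.11.15, and the scripts were tested on simulated data. The small RNA and behavior experiments are not analysed here.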

Additional observations from a re-analysis of the deposited data

Results flagged for a closer look

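Outside the genes with a symbol, 64 probe sets without one were above 6 and 2-fold higher in RS than in NV, and 63 were lower, of 1374 above 6 in RS or NV. That is 9.24%. The largest rise among them was 4.33 and the largest fall -7.65, both beyond those of the named genes. What these probe sets detect was not examined.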

How the results depend on the processing

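The 2-fold counts of 582 higher and 485 lower genes depended on the threshold and on the limit on dim signals. Without a limit, 836 genes were lower and 686 higher, so that 45.1% of the genes past 2-fold were higher, and with a signal above 6 in both arrays 285 were lower and 469 higher, or 62.2%, against 54.5% with the limit used. At 1.5-fold 3176 genes passed, 1859 higher and 1317 lower. Removal of the lowess trend gave 509 higher and 501 lower genes and quantile normalization 530 and 504. With RE in place of RS there were 465 higher and 514 lower, and with the mean of RS and RE 466 and 454.

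The 326 named genes followed here were all picked for a difference of 2-fold or more. Of these, 0 changed direction under centring, lowess removal, quantile normalization, the mean of probe sets or the mean of RS and RE. That choice left little room for a change of direction, and the mean of RS and RE contains RS. RE alone was not tried on these genes. Of the 326, 31 fell below 2-fold under lowess removal and 30 under quantile normalization. With the mean of RS and RE 60 did, and with the mean of probe sets 1. Of the medians of 100 lists, that of the ZIC, GLI, EBF, TFAP2 and NFI factors turned to 0.13 with genes above 6 in both arrays against -0.81, a filter that removes genes dim in 1 array. Under this filter the median of dentate granule cells was 1.19 against 1.61, that of the dorsal midbrain and brainstem -1.17 against -1.66 and that of dopamine and adrenergic receptors -0.61 against -0.0036. With the mean of RS and RE, the median of the thalamus and habenula was -0.47 against -0.83, that of the choroid plexus -0.24 against 0.10 and that of dopamine and adrenergic receptors -0.38 against -0.0036. No paired analysis was possible because each group was 1 array, and no replicate could be left out.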

Other observations

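Transporters and pumps lay on both sides of the 9.02% of all genes above 6 that passed 2-fold. Of 219 solute carriers above 6, 7 were higher and 9 lower, or 7.31%. Slc24a2, a sodium, calcium and potassium exchanger of neurons, had 14.22 in RS, 14.41 in RE and 12.98 in NV, and Slc25a18, a mitochondrial glutamate carrier, had 8.17 in RS, 8.51 in RE and 10.09 in NV. Slc7a11, the cystine and glutamate exchanger of astrocytes, differed by -1.06. Among 66 ABC transporters and ATPase pumps 7 were higher and 2 lower, or 13.6%. The cholesterol exporter gene Abca1 had 10.04 in RS, 9.74 in RE and 8.61 in NV, and the calcium pump gene Atp2b1 had 15.81 in RS, 15.47 in RE and 14.42 in NV. Atp13a2, a lysosomal pump, differed by -1.43.

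Receptors of interleukin-1 were higher among 53 chemokine, interleukin and receptor genes, of which 4 were higher and 4 lower. Il1r1 had 9.89 in RS, 8.79 in RE and 8.08 in NV, and its partner Il1rap, which the list of dentate granule cells also holds, had 12.20 in RS, 11.86 in RE and 10.43 in NV. The chemokine gene Cxcl12 had 9.95 in RS, 10.01 in RE and 8.56 in NV. Of 24 genes of cholesterol synthesis and uptake, 3 were higher and 0 lower at a median difference of -0.15, and besides Abca1 these were the mevalonate kinase gene Mvk with 1.26 and Insig2, a sterol sensor partner, with 1.14. In the cytoskeleton, the microtubule gene Map4 had 13.82 in RS, 13.69 in RE and 12.53 in NV.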
